A study of Mus musculus with 24 samples.

Results

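The response of mouse bone marrow macrophages to 2 h of lipopolysaccharide (LPS) was read from 6 of the 24 arrays of the series: 3 arrays of control cells at 2 h and 3 of control cells at 0 h, paired by replicate number. LPS is the cell wall component by which macrophages sense Gram-negative bacteria. The macrophages came from bone marrow of female C57BL/6 mice 6 weeks of age. The control cells carried no named allele and received no bromodomain inhibitor, and the labels do not say whether they received its solvent. The 0 h control cells had no LPS, and the 2 h control cells had LPS for 2 h. The remaining arrays hold control cells at 1 h and 4 h of LPS and cells given a bromodomain inhibitor at 0, 1, 2 and 4 h, each with 3 replicates. They were used here to estimate the spread and to place the 2 h response in time and beside the inhibitor. The sources used here do not give the LPS dose or the compound, and of culture they say only that it was standard. The design text calls the replicates biological without naming mice or cultures, so the p-values measure the spread between these samples, which may be technical in part.

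LPS is handed by Cd14 to the receptor Tlr4, which signals through a pair of adaptor branches. The Myd88 branch frees NF-kB from its inhibitors and activates MAP kinases and AP-1, and drives genes such as Tnf, Il1b and the neutrophil chemokines. The branch through Ticam1 and Ticam2 activates Irf3 and induces interferon beta, which acts back on the cells and switches on interferon-stimulated genes in a second wave. Many of the early products are brakes: NF-kB inhibitors, MAP kinase phosphatases, Socs proteins and factors that destroy cytokine mRNA.

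Levels are the authors' deposited log2 intensities, which ran from 5.354 to 15.172, so that a difference of 1 is a factor of 2. A floor of 6.455, the level under which 99% of the values of 1303 odorant and pheromone receptor probes lay, stood in for a detection limit. Testing covered the 8201 genes that cleared this floor throughout 1 group or more. Changes are given as the log2 change, 2 h minus 0 h, ± limma's standard error, with limma's adjusted p over all 8201 genes. The standard error rests on a single spread per gene, estimated over all 24 arrays in 8 groups of 3 replicates. The ± beside a level is the SD of the 3 arrays of its group. A change is called when the adjusted p is under 0.05. Levels close to the top of the scale may be compressed, and folds of dim genes may be understated, since no background was subtracted here. The label of macrophages was checked against markers. All 7 macrophage markers with a named probe, Adgre1, Itgam, Cd14, Lyz2, Fcgr1, Mertk and Mrc1, lay above the floor on all 6 arrays. All 6 T cell markers lay below the floor on all 6 arrays, as did 3 of 4 B cell, 5 of 6 dendritic cell, 4 of 5 natural killer cell and 6 of 8 neutrophil markers. Among the macrophage markers Cd14 was called higher and Fcgr1 and Mertk lower. Of the markers of these other types, only S100a8, Mpo and Prf1 were bright enough to be tested, and they were not called. The red cell marker Hbb-bt (6.64 at 0 h) and the stromal marker Cxcl12 (6.56) lay just above the floor on all 6 arrays and were not called. Of 3 mast cell and basophil markers with a probe, 2 lay above the floor on all 6 arrays, namely Cpa3 (11.25 at 0 h and 10.97 at 2 h), which fell, and Fcer1a (8.24 and 8.27), which was not called. Their part in the results was not tested. Log2 of the summed neutrophil marker intensity ranged from 10.46 to 10.67 at 0 h and from 10.37 to 10.71 at 2 h. In bulk RNA of this kind, fewer cells of a type and less RNA per cell cannot be told apart.

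At 2 h the response was broad and uneven. Of the 8201 genes, 3199 (39%) were called, 1145 higher (14%) and 2054 lower (25%). The counts of each gene group below are to be read beside these shares. Most called changes were small: 2744 of the 3199, or 85.8%, were under 2-fold. Rises reached much further than falls. There were 335 genes that rose at least 2-fold (4.08%) and 120 that fell at least 2-fold (1.46%). These counts became 471 and 54 with each array centred on housekeeping genes, and 522 and 402 with background subtracted. Among the 335, 68 rose by a log2 change of at least 3 and 18 by at least 5, while 1 of the 120 falls reached 3. All 3 arrays at 2 h lay above all 3 at 0 h for 329 of the 335, against 14.6% of all genes tested. They lay below for 115 of the 120, against 24.8% of all genes. Both sets were chosen by their change on these same arrays, so the separation follows in large part from the choice. Without the replicate number as a block, 2070 genes were called. The balance of small rises and falls depended on how the arrays were scaled. On the deposited scale 35.8% of calls were rises and the median gene moved by -0.08. Centring each array on 21 housekeeping genes moved the median gene to 0.17 and made 82.9% of calls rises. Cyclic loess gave -0.01 and 51.9%. On the deposited scale the housekeeping genes themselves had a median of -0.15, with 0 called higher and 6 lower. The centring took their median to 0.11, with 8 called higher and 0 lower, so it moved them past no change.

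**Figure D1:**
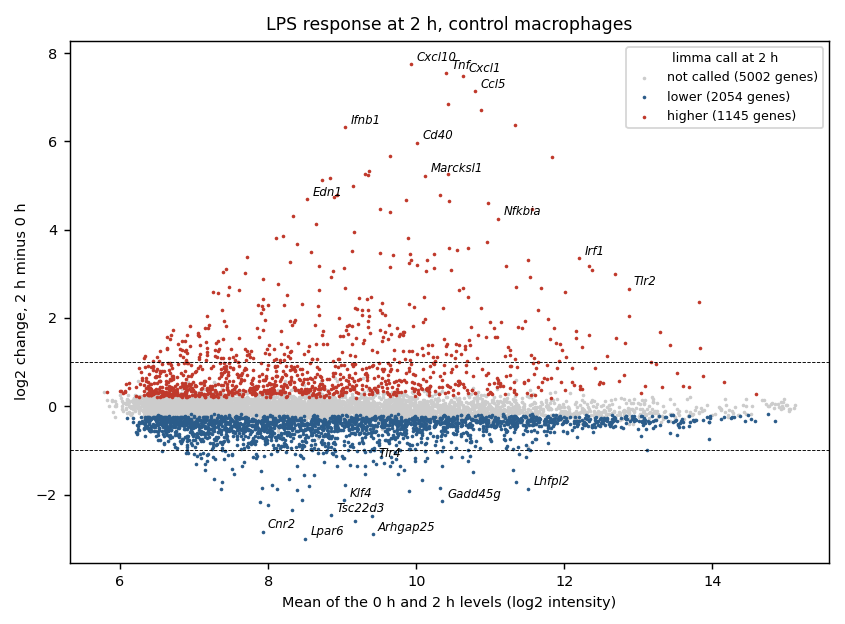
Each point is 1 of the 8201 genes, with the mean of its 0 h and 2 h levels (log2 intensity) on the x axis and its log2 change at 2 h on the y axis. Red points were called higher (1145 genes), blue points lower (2054) and grey points not called (5002), and dashed lines mark a 2-fold change. Rises extend past a log2 change of 7, while the falls end near -3.

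Secreted cytokines showed some of the largest changes of the whole response. Tnf, the founding inflammatory cytokine of macrophages, lay at 6.47, 6.88 and 6.54 at 0 h and at 13.93, 14.28 and 14.34 at 2 h. It was near the floor on every array before LPS and near the top of the scale on every array after it, a 188-fold rise (log2 change 7.55 ± 0.20, adjusted p = 5.8e-16). Il1a, an interleukin 1 released by damaged and activated cells, lay at 7.33, 7.76 and 7.50 at 0 h and at 14.07, 14.34 and 14.28 at 2 h, and rose 104-fold (6.70 ± 0.34, adjusted p = 8.48e-12). Il1b, whose product is cut to its active form by caspase 1, lay at 7.67, 8.99 and 7.79 at 0 h and at 14.44, 14.51 and 14.63 at 2 h, and rose by 6.38 ± 0.44, adjusted p = 9.3e-10. The groups did not overlap for either interleukin 1 gene, and replicate 2 had the highest level of both before LPS. Il6, which drives the acute phase response, lay at 6.44, 6.81 and 6.96 at 0 h and at 11.52, 12.22 and 12.16 at 2 h. Its arrays at 0 h straddled the floor, and those at 2 h lay far above them (log2 change 5.23 ± 0.37, adjusted p = 1.04e-09).

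Ifnb1, the interferon that starts the second wave, lay at 5.97, 5.81 and 5.85 at 0 h and at 11.52, 13.16 and 11.92 at 2 h. All 3 arrays were below the floor before LPS, so the rise was at least 53.5-fold (log2 change 6.32 ± 0.62, adjusted p = 1.01e-07), and replicate 2 stood highest at 2 h. Among the ligands that steer T cells, each starting below the floor, the interleukin 23 subunit gene Il23a rose at least 7.7-fold, the interleukin 27 subunit gene Il27 at least 5.77-fold and the interleukin 12 subunit gene Il12a at least 1.36-fold. The log2 changes were Il23a 3.38, Il27 3.11 and Il12a 0.90. Il10, the main anti-inflammatory cytokine of macrophages, was not called at 2 h, at 5.96 ± 0.15 before LPS and 6.52 ± 0.49 at 2 h, log2 change 0.56 (adjusted p = 0.0901). It was called at 2 h in a fit to these 6 arrays alone (log2 change 0.56, adjusted p = 0.0318), with centring on housekeeping genes (0.81, adjusted p = 0.0173) and when control replicate 1 at 2 h was left out (0.83, adjusted p = 0.0233). The only fall in the group was Osm, a ligand of the interleukin 6 family, which lay at 9.82, 10.61 and 11.44 at 0 h and at 8.996, 9.68 and 10.16 at 2 h and fell by 1.01 (adjusted p = 0.0138). It was lower at 2 h in each of the 3 pairs although the groups overlapped. Its adjusted p rose to 0.0624 with control replicate 2 at 0 h left out and to 0.0965 with replicate 3 at 0 h left out. It rose to 0.106 with replicate 1 at 2 h left out and to 0.0585 with no replicate block. With centring on housekeeping genes it was 0.0517 (log2 change -0.76), so the call was lost in each. Over the cytokine ligands (30 genes listed, 24 tested), 20 rose, 1 fell and 3 did not pass the test, with a median log2 change of 1.92 against -0.08 over all genes.

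Chemokines rose as steeply. Cxcl10, which draws activated T cells and natural killer cells, lay at 6.12, 6.06 and 5.99 at 0 h and at 14.30, 13.57 and 13.53 at 2 h. It went from below the floor on all 3 arrays to among the highest levels measured, at least 162-fold (log2 change 7.74 ± 0.22, adjusted p = 9.75e-16). Cxcl1, a neutrophil attractant, lay at 6.25, 7.30 and 7.12 at 0 h and at 13.66, 14.68 and 14.79 at 2 h, a 180-fold rise (7.49 ± 0.23, adjusted p = 2.97e-15). Its relative Cxcl2 lay at 6.25, 6.84 and 6.92 at 0 h and at 10.76, 12.56 and 12.49 at 2 h, a 38.5-fold rise (5.27 ± 0.32, adjusted p = 1.32e-10). For both, replicate 1 was the lowest at 0 h and at 2 h, and the groups were far apart. Ccl5, a T cell and monocyte attractant, lay at 7.26, 7.16 and 7.26 at 0 h and at 14.49, 14.18 and 14.41 at 2 h. The arrays within each group agreed closely, and the rise was 141-fold (7.14 ± 0.32, adjusted p = 1.25e-12). Cxcl9, another attractant of activated T cells, rose at least 4.26-fold (log2 change 2.58).

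The monocyte and macrophage attractants Ccl2, Ccl3 and Ccl4 started from levels that differed widely between replicates. Ccl2 lay at 8.13, 10.67 and 12.24 at 0 h and at 12.06, 13.63 and 13.35 at 2 h, and Ccl3 at 8.36, 11.31 and 12.55 at 0 h and at 13.67, 14.19 and 13.90 at 2 h. Before LPS replicate 1 was lowest and replicate 3 highest for both, and at 2 h the replicates lay much closer together. The groups overlapped for Ccl2 and not for Ccl3. The log2 changes were Ccl3 3.18, Ccl2 2.67 and Ccl4 2.36, all called, with every pair higher at 2 h. The rise of Ccl2 in replicate 1 was 3.93 and in replicate 3 1.11, and that of Ccl3 was 5.31 and 1.35. In the chemokine group (25 genes listed, 20 tested), 13 rose, 2 fell and 5 did not pass the test, and the median log2 change was 1.66.

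**Figure D2:**
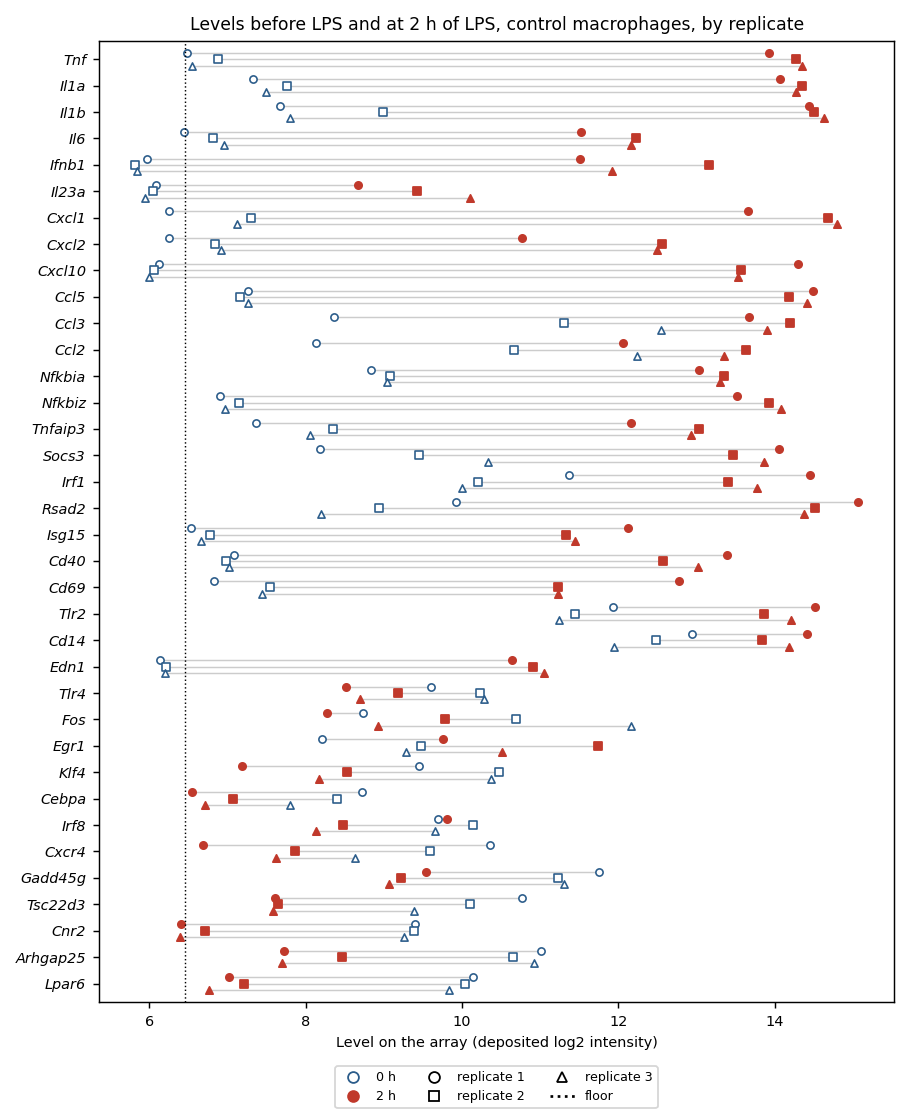
Level (deposited log2 intensity) of 36 genes on each of the 6 arrays, with open blue symbols for 0 h and filled red symbols for 2 h. Symbol shape gives the replicate, a grey line joins the pair, and the dotted line is the floor. Tnf, Cxcl1 and Cxcl10 cross most of the scale, Ccl2 and Ccl3 start from levels that differ between replicates, and the lower rows hold genes that fell, such as Klf4 and Lpar6.

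Receptors for cytokines and chemokines moved in both directions. The largest rise was Ccrl2, a decoy receptor that binds the chemoattractant chemerin, with a log2 change of 4.59 ± 0.22, adjusted p = 3.53e-12. Il15ra, which presents interleukin 15, rose at least 2.64-fold, and the TNF receptor gene Tnfrsf1b and the interferon receptor subunit gene Ifnar2 rose by 1.24 and 1.24. Cxcr4, the receptor that holds cells in the bone marrow, lay at 10.36, 9.59 and 8.62 at 0 h and at 6.69, 7.86 and 7.62 at 2 h. It was lower at 2 h in all 3 pairs, with replicate 1 both the highest before and the lowest after (log2 change -2.13 ± 0.43, adjusted p = 0.00056). Il6ra, the interleukin 6 receptor, fell by 0.93, and Cx3cr1, the fractalkine receptor, sat at the floor in both groups (6.53 ± 0.10 and 6.45 ± 0.10). Of 34 receptors listed, 24 were tested, and 7 rose, 6 fell and 11 did not pass the test. Of all genes 14% rose and 25% fell, so the falls of this group lay near that share. The receptors' median of -0.06 turned positive with centring on housekeeping genes and with cyclic loess. The counts of the group became 10 up and 2 down with centring on housekeeping genes.

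Genes of LPS sensing moved in both directions. Tlr4, the LPS receptor, lay at 9.60, 10.23 and 10.28 at 0 h and at 8.51, 9.18 and 8.69 at 2 h. All 3 arrays at 2 h were below all 3 at 0 h, a fall of 1.24 (adjusted p = 2.46e-05). Its adaptor Ticam2, which leads to the interferon branch, fell by 0.79. The co-receptor Cd14 and the lipopeptide receptor Tlr2 rose by 1.69 and 2.66 from already high levels, 12.45 ± 0.50 and 11.54 ± 0.36 (SD, n = 3). The kinase gene Irak2, which prolongs signalling, rose by 1.28, and Irak3, a brake on the same complex, by 0.96. The shared adaptor Myd88 rose by 0.59, and Tollip, a negative regulator, was not called (log2 change 0.07). Across the Toll-like receptor genes (29 genes listed, 25 tested), 12 rose, 3 fell and 10 did not pass the test, with a median of 0.25.

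The NF-kB subunits and their inhibitors rose almost as a body. Nfkbia, the inhibitor that NF-kB itself induces, lay at 8.84, 9.07 and 9.04 at 0 h and at 13.03, 13.35 and 13.30 at 2 h. The arrays of each group lay within a narrow band, 18.9-fold apart (4.24 ± 0.12, adjusted p = 8.65e-16). Nfkbiz, a nuclear cofactor needed for a class of secondary NF-kB targets, rose by 6.83 ± 0.23, adjusted p = 1.56e-14, and Tnfaip3, the deubiquitinase A20 that limits the pathway, by 4.79 ± 0.21, adjusted p = 7.79e-13. The inhibitor gene Nfkbie and the subunit gene Rel rose by 3.50 and 3.27. Ikbkg, the regulatory subunit of the kinase that starts the pathway, was the only member that fell (-0.38), a call lost without control replicate 1 at 0 h (adjusted p = 0.111) or at 2 h (0.0718). The call was also lost in the 6 arrays alone (0.0714), with cyclic loess (0.0536), with the mean of probes (log2 change -0.14, adjusted p = 0.167) and with centring on housekeeping genes (-0.13, adjusted p = 0.466). The adaptor gene Traf2 was not called (0.01). Among 24 genes listed, 20 were tested, of which 18 rose, 1 fell and 1 did not pass the test. 14 rose at least 2-fold, and the median was 2.09, the highest of the 28 groups on the deposited scale. With background subtracted it was 2.64, and that of the cytokine ligands 3.24.

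Immediate early genes, the first transcription factors to respond, were mostly below their 1 h levels. Of 28 listed, 19 were tested, and 7 rose, 2 fell and 10 did not pass the test against 0 h. Compared with 1 h, 12 were lower at 2 h and 0 higher, where 13% of all genes were lower and 10.2% higher. Egr1 lay at 8.21, 9.48 and 9.29 at 0 h and at 9.76, 11.74 and 10.51 at 2 h. It was still raised in every pair, by 1.68 ± 0.34, adjusted p = 0.00062, but 3.66 log2 units below its 1 h level (adjusted p = 2.44e-07). Csrnp1 and Junb, further nuclear factors of this class, remained raised by 3.17 and 0.94. Egr2 was not called against 0 h (11.10 ± 0.64 at 0 h, 13.31 ± 0.44 at 1 h and 10.98 ± 1.18 at 2 h). Fos, an AP-1 subunit, lay at 8.73, 10.69 and 12.16 at 0 h and at 8.28, 9.78 and 8.92 at 2 h. The 0 h arrays spread over more than 3 log2 units, with replicate 3 highest, and the groups overlapped. The fall of 1.53 (adjusted p = 0.0214) was no longer called with control replicate 3 left out at 0 h (log2 change -0.84, adjusted p = 0.192) or at 2 h (-1.25, adjusted p = 0.104), nor with no replicate block (adjusted p = 0.133). A fit to these 6 arrays alone made no call either (adjusted p = 0.0686). Klf4, a Krüppel-like factor of the monocyte line, lay at 9.44, 10.47 and 10.37 at 0 h and at 7.18, 8.53 and 8.17 at 2 h. It was lower in all 3 pairs without overlap (log2 change -2.13 ± 0.20, adjusted p = 7.13e-08).

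Many tested regulators of the interferon and cytokine receptor pathways rose. Irf1, an activator of interferon-stimulated genes, lay at 11.37, 10.21 and 10.003 at 0 h and at 14.46, 13.40 and 13.77 at 2 h. Replicate 1 was highest in both groups, and the groups did not overlap (3.35 ± 0.24, adjusted p = 1.71e-09). Irf7, which amplifies interferon production, rose by 1.48, and the kinase gene Jak2 by 1.83. Socs3, the feedback inhibitor of interleukin 6 receptor signalling, lay at 8.18, 9.45 and 10.33 at 0 h and at 14.06, 13.47 and 13.86 at 2 h. Its 0 h levels differed by over 2 log2 units between replicates and its 2 h levels by far less (log2 change 4.48 ± 0.37, adjusted p = 8.23e-09). Cish, another Socs family gene, rose by 1.55, a call lost without control replicate 1 at 0 h (log2 change 1.02, adjusted p = 0.0545). Irf8, a lineage factor of monocytes, lay at 9.70, 10.14 and 9.65 at 0 h and at 9.80, 8.47 and 8.13 at 2 h. It was lower in replicates 2 and 3 and slightly higher in replicate 1, so the groups overlapped, with a log2 change of -1.03 (adjusted p = 0.00421), and a fit to these 6 arrays alone made no call (adjusted p = 0.068). Stat3, which carries interleukin 6 and 10 signals, was not called (10.75 ± 0.09 and 10.75 ± 0.08). Of 26 listed genes, 24 were tested and 12 rose, 2 fell and 10 did not pass the test.

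Interferon-stimulated genes rose with no called fall. Of 34 antiviral genes listed, 29 were tested, and 26 rose, 0 fell and 3 did not pass the test, with a median of 0.97. Without the replicate block 17 rose and 0 fell. Of 16 interferon-induced GTPases listed, all 10 tested rose, with a median of 1.71. Rsad2, which encodes the antiviral enzyme viperin, lay at 9.92, 8.94 and 8.19 at 0 h and at 15.07, 14.52 and 14.38 at 2 h. Replicate 1 was the highest in both groups, and the rise was 49.8-fold (5.64 ± 0.57, adjusted p = 1.75e-07). Isg15, a ubiquitin-like modifier, lay at 6.53, 6.77 and 6.66 at 0 h and at 12.12, 11.34 and 11.44 at 2 h, from close to the floor to well above it (4.98 ± 0.23, adjusted p = 1.68e-12). Mx2, an antiviral GTPase, rose at least 31.3-fold and its relative Mx1 at least 4.78-fold, both from below the floor. Oasl1, of the oligoadenylate synthetase family, rose by 5.66, Cmpk2, a mitochondrial nucleotide kinase, by 4.67, and the RNA-binding Ifit2 and Ifit3 by 4.65 and 3.51. Gbp5, a guanylate-binding protein that attacks membranes of intracellular bacteria, rose by 5.33 ± 0.37, adjusted p = 7.37e-10. Its relatives Gbp2 and Gbp3 and the immunity GTPases Irgm2 and Ifi47 rose from higher starting levels, by Gbp2 2.17, Gbp3 1.80, Irgm2 2.06 and Ifi47 2.10.

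Genes for brakes on MAP kinases and on cytokine mRNA changed too. Dusp2, Dusp16 and Dusp4, phosphatases that switch off MAP kinases, rose by Dusp2 2.76, Dusp16 2.18 and Dusp4 1.77. Dusp1, the best known of these in macrophages, was not called against 0 h, at 12.42 ± 1.02 at 0 h, 14.56 ± 0.18 at 1 h and 12.47 ± 0.58 at 2 h (2 h against 1 h: log2 change -2.09 (adjusted p = 0.000564)). The stress genes of the Gadd45 family parted. Gadd45b rose by 3.45 ± 0.26, adjusted p = 3.47e-09. Gadd45g lay at 11.76, 11.22 and 11.30 at 0 h and at 9.54, 9.21 and 9.06 at 2 h, and all 3 arrays at 2 h were lower than all 3 at 0 h (-2.16 ± 0.26, adjusted p = 1.39e-06). Gadd45a was not called against 0 h (log2 change -0.15). Zc3h12a, the nuclease Regnase-1 that degrades cytokine mRNA, rose by 3.32 ± 0.21, adjusted p = 2.5e-10, and its relative Zc3h12d fell by 1.15. Of the MAP kinase regulators (28 genes listed, 23 tested), 11 rose, 3 fell and 9 did not pass the test. Of the mRNA decay genes (16 genes listed, 8 tested), 2 rose, 1 fell and 5 did not pass the test.

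Genes of surface activation and costimulation rose in 18 of 21 tested cases (24 listed). Cd40, the receptor through which T cells license macrophages, lay at 7.09, 6.98 and 7.02 at 0 h and at 13.39, 12.58 and 13.02 at 2 h. All arrays at 0 h lay near the floor and those at 2 h near 13 (5.97 ± 0.33, adjusted p = 2.42e-11). Cd69, an early activation antigen, rose by 4.47 ± 0.31, adjusted p = 7.04e-10. Clec4e, which senses mycobacterial glycolipid, rose by 4.78, Tnfsf4, the ligand of the costimulatory receptor OX40, rose at least 16.3-fold, and Fpr2, a formyl peptide receptor, rose by 3.68. Antigen presentation genes had a lower median. In that group (24 genes listed, 24 tested), 10 rose, 2 fell and 12 did not pass the test, at 0.29. Centring on housekeeping genes gave 19 rises and 0 falls, and without the replicate block 5 rose and 1 fell. H2-M2, a non-classical class I gene, was the one rise of at least 2-fold, at 9.29, 8.57 and 8.09 at 0 h and at 12.77, 11.99 and 11.92 at 2 h, with no overlap and a rise of 3.58 ± 0.27, adjusted p = 3.19e-09. H2-Q7 and the tapasin-related Tapbpl rose by 0.43 and 0.55, and the lysosomal protease gene Ctss was not called (-0.20).

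Some effector and metabolic genes rose and others fell, where 14% of all genes rose and 25% fell. For arginine and nitric oxide, the arginine transporter gene Slc7a2, the arginase gene Arg2 and Gch1, which makes the cofactor of nitric oxide synthase, rose by Slc7a2 1.80, Arg2 1.85 and Gch1 1.43, while Nos2, the inducible nitric oxide synthase itself, lay below the floor on 3 of 3 arrays at 0 h and 2 of 3 at 2 h (6.07 ± 0.20 and 6.33 ± 0.18) and was not called. Nos2 was called higher with centring on housekeeping genes (log2 change 0.52, adjusted p = 0.0353). Ptgs2, the inducible cyclooxygenase, rose at least 1.77-fold from below the floor, and Sod2, the mitochondrial superoxide dismutase, rose by 1.55. In glycolysis, the transporter gene Slc2a6, the hypoxia factor gene Hif1a and the hexokinase gene Hk2 rose by Slc2a6 2.59, Hif1a 1.21 and Hk2 1.17, and Pkm, pyruvate kinase, fell by 0.61. Of 27 glycolysis and hypoxia genes listed, 20 were tested, and 5 rose, 7 fell and 8 did not pass the test. With centring on housekeeping genes 6 rose and 1 fell, and without the replicate block 4 rose and 2 fell. In sterol metabolism (27 genes listed, 20 tested), 6 rose, 5 fell and 9 did not pass the test. The counts of the group became 8 up and 1 down with centring on housekeeping genes, and without the replicate block 3 rose and 4 fell. Ch25h, which makes the antiviral oxysterol 25-hydroxycholesterol, lay at 7.81, 9.24 and 10.26 at 0 h and at 12.66, 12.78 and 13.004 at 2 h, well separated (log2 change 3.71 ± 0.52, adjusted p = 1.24e-05). Abcg1, a cholesterol exporter, fell by 1.24 without overlap. Among transporters, Slc7a11, the cystine importer that feeds glutathione synthesis, rose by 3.14 ± 0.27, adjusted p = 1.31e-08, and Slc40a1, the iron exporter ferroportin, fell by 0.90 (adjusted p = 7.03e-06). In that group (33 genes listed, 27 tested), 7 rose, 9 fell and 11 did not pass the test. Centring on housekeeping genes gave 13 rises and 3 falls, and without the replicate block 6 rose and 5 fell.

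The 3 largest falls were those of Lpar6, Arhgap25 and Cnr2. Lpar6, a receptor for lysophosphatidic acid, lay at 10.13, 10.04 and 9.83 at 0 h and at 7.02, 7.21 and 6.76 at 2 h. The groups were about 3 log2 units apart with no overlap (-3.004 ± 0.17, adjusted p = 3.13e-11). Arhgap25, a Rac-specific GTPase-activating protein of phagocytes, lay at 11.01, 10.65 and 10.91 at 0 h and at 7.72, 8.46 and 7.70 at 2 h (-2.90 ± 0.24, adjusted p = 1.24e-08). Cnr2, the cannabinoid receptor of immune cells, lay at 9.40, 9.38 and 9.26 at 0 h and at 6.40, 6.71 and 6.39 at 2 h. At 2 h it lay close to the floor (-2.84 ± 0.13, adjusted p = 1.98e-12). Over the G protein-coupled receptor and RGS genes (33 genes listed, 20 tested), 6 rose, 10 fell and 4 did not pass the test. Of all genes, 14% rose and 25% fell. The group's median of -0.22 became 0.03 with centring on housekeeping genes. With centring on housekeeping genes 8 rose and 4 fell. P2ry6, a receptor for UDP, fell by 0.99, while Gpr84, a medium-chain fatty acid receptor, rose at least 5.13-fold and Gpr85 and Hcar2, the niacin receptor, rose by 2.43 and 1.96. Cytoskeletal regulators rose more often than they fell (30 genes listed, 24 tested, 8 up and 3 down). The counts of the group became 14 up and 3 down with centring on housekeeping genes. Marcksl1, an actin-binding substrate of protein kinase C, rose by 5.22 ± 0.21, adjusted p = 3.79e-13. The Cdc42 effector gene Cdc42ep2 rose by 2.35.

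Genes of growth arrest and of the glucocorticoid and forkhead programmes fell in 13 cases. Tsc22d3, the glucocorticoid-induced leucine zipper gene, lay at 10.77, 10.10 and 9.38 at 0 h and at 7.604, 7.64 and 7.59 at 2 h. The spread between replicates shrank from over 1 log2 unit to under 0.1 (-2.47 ± 0.32, adjusted p = 3.76e-06). Sesn1, a stress-induced inhibitor of growth signalling, the clock gene Per1 and Txnip, the thioredoxin inhibitor, fell as well, with log2 changes of Sesn1 -1.92, Per1 -1.88 and Txnip -1.72. Other members rose: Bcl6, a repressor of inflammatory genes, Phlda1, a pleckstrin homology-like gene, the insulin receptor substrate gene Irs2 and Ccng2, with log2 changes of Bcl6 2.31, Phlda1 2.19, Irs2 1.82 and Ccng2 1.62. Of 30 listed, 27 were tested and 8 rose, 13 fell and 6 did not pass the test. Centring on housekeeping genes gave 8 rises and 7 falls. Lineage transcription factors went both ways (27 genes listed, 22 tested), as 8 rose, 8 fell and 6 did not pass the test. With centring on housekeeping genes 9 rose and 2 fell, and without the replicate block 6 rose and 3 fell. Cebpa, a master factor of the myeloid line, lay at 8.72, 8.40 and 7.79 at 0 h and at 6.54, 7.07 and 6.71 at 2 h, lower on every array at 2 h (-1.53 ± 0.24, adjusted p = 4.74e-05). Its relative Cebpb was among the brightest and was not called (14.10 ± 0.24 and 14.08 ± 0.28). Ets2 and Mef2a rose by 1.56 and 1.10. Among cell cycle genes (40 genes listed, 26 tested), 1 rose, 10 fell and 15 did not pass the test, where 14% of all genes rose and 25% fell. E2f2, an S phase transcription factor, fell by 1.36, Cdc6, a replication licensing factor, by 0.62, and Ccnd2, cyclin D2, was the one rise (1.56). The counts of the group became 3 up and 3 down with centring on housekeeping genes, and without the replicate block 1 rose and 4 fell.

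Among the other large falls named by rank were AI467606, Fam78a, Gpr146, Fbxo32, Hhex and Lhfpl2, with log2 changes of AI467606 -2.49, Fam78a -2.35, Gpr146 -2.24, Fbxo32 -2.18, Hhex -1.91 and Lhfpl2 -1.87. Fbxo32 encodes a ubiquitin ligase adaptor known from muscle wasting, and Hhex a homeobox factor of blood and liver. For each, all 3 arrays at 2 h lay below all 3 at 0 h. Cav1, the coat protein of caveolae, belonged to none of the groups and was among the 15 largest rises, at 8.43, 7.52 and 7.42 at 0 h and at 13.35, 12.80 and 13.03 at 2 h (5.27 ± 0.27, adjusted p = 1.03e-11).

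Survival and inflammasome genes were mixed. In the survival group (28 genes listed, 20 tested), 10 rose, 5 fell and 5 did not pass the test. Its falls lay near the share of all genes, of which 14% rose and 25% fell. Bcl2l11, which encodes the death factor Bim, Bcl2a1d, a survival factor induced by NF-kB, and the kinase gene Pim1 rose by Bcl2l11 1.501, Bcl2a1d 1.25 and Pim1 1.08. Casp9, the initiator caspase of the mitochondrial pathway, and Bid, which links death receptors to mitochondria, fell, with log2 changes of Casp9 -1.36 and Bid -1.07. In the inflammasome group (19 genes listed, 16 tested), 8 rose, 2 fell and 6 did not pass the test. The sensor gene Nlrp3 lay at 6.29 ± 0.08 before LPS and 8.46 ± 0.43 at 2 h, below the floor on every array before and above it on every array after, a rise of at least 4.01-fold. Casp4, whose product binds LPS in the cytosol, rose by 1.72, and Casp1, the shared effector, was not called (-0.05).

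Genes of the ribosome and the respiratory chain had called falls and no rise on the deposited scale, and this direction flipped with centring on housekeeping genes. With cyclic loess 2 ribosomal genes rose and 1 fell, and 0 respiratory chain genes rose and 1 fell. With background subtracted 9 ribosomal and 8 respiratory chain genes fell and 0 rose. For ribosomal protein genes (40 genes listed, 26 tested), 10 fell and 0 rose, within log2 changes of -0.47 to 0.10, but with centring on housekeeping genes 5 rose and 0 fell. For respiratory chain genes (39 genes listed, 32 tested), 12 fell and 0 rose, and with that centring 4 rose and 0 fell. Without the replicate block 1 ribosomal, 2 respiratory chain and 2 phagocytosis genes fell. Phagocytosis genes (35 genes listed, 27 tested) had 3 rises and 7 falls, which became 11 and 1 with the centring, and these shares on the deposited scale lay near the 14% and 25% of all genes. Cfb, complement factor B, rose by 1.04, and Fcgr1, the high-affinity Fc receptor gene, fell by 0.66. Of the chaperone genes (23 genes listed, 17 tested), 6 rose, 5 fell and 6 did not pass the test. Centring on housekeeping genes gave 9 rises and 0 falls, and without the replicate block 4 rose and 3 fell. Hspa1a, the inducible Hsp70, rose by 2.07 ± 0.29, adjusted p = 1.23e-05, and Dnajb4, one of its partners, by 1.56.

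**Figure D3:**
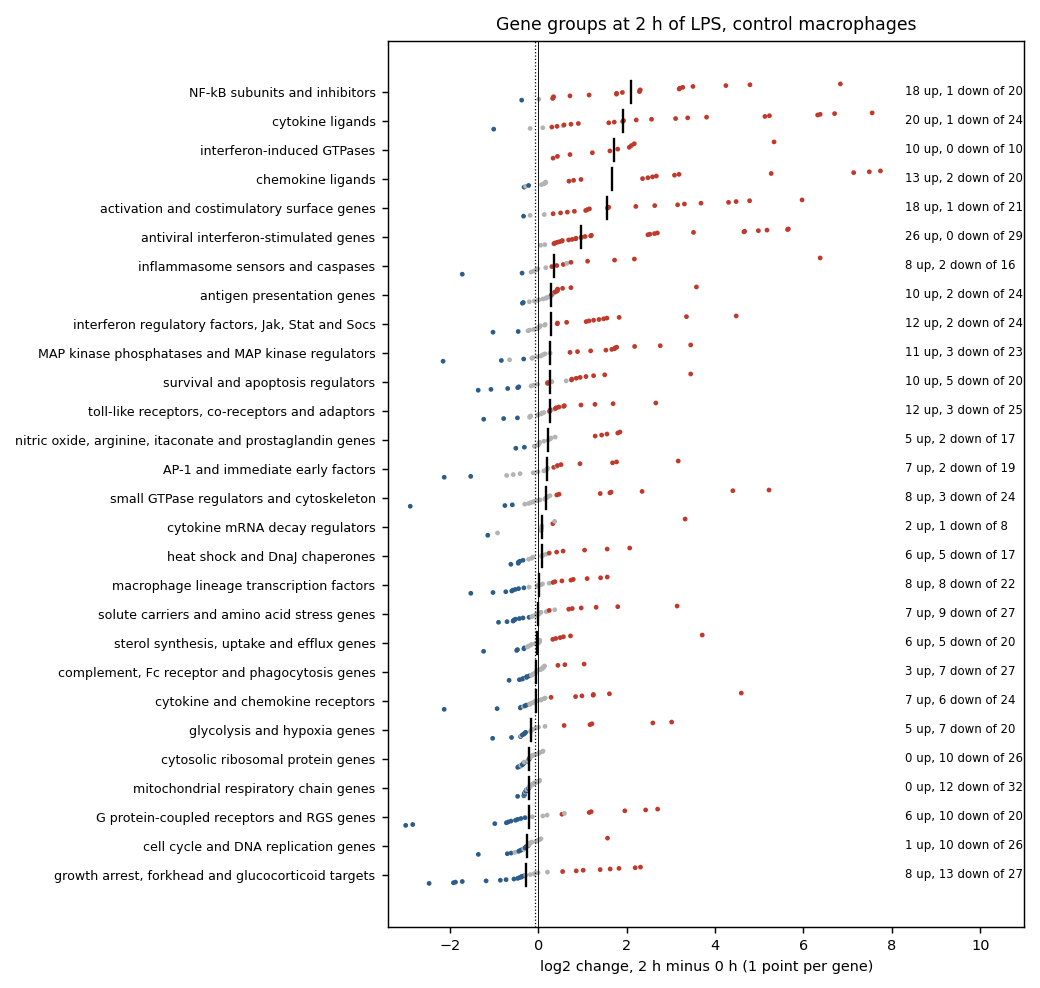
Log2 change at 2 h of every tested member of 28 gene groups, sorted by the group's median (black bar). Red points were called higher, blue lower and grey not called, the dotted line is the median of all genes (-0.08), and the counts at the right give calls of members tested. On this deposited scale NF-kB genes have the highest median (2.09) and growth arrest genes the lowest (-0.29). With background subtracted, cytokine ligands (3.24) pass NF-kB genes (2.64) and G protein-coupled receptor genes (-0.42) lie below growth arrest genes (-0.36).

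The windows at the start sites of genes raised early and late were compared for motif letters, as a description without a test. Of the 335 genes raised at least 2-fold, 188 were already called higher at 1 h, where 3.35% of all genes were, and 147 were not called at 1 h. The comparisons at 1 h and 2 h share the 0 h arrays, so the choice of the 335 favours calls at 1 h. Windows from 250 bases before to 50 after the start were taken from RefSeq (build GRCm38.p6), with 145 genes of the early class matched by 200 windows and 105 genes of the late class by 134. The letters GGNNTTTCC of a kB site, which NF-kB binds, were found on either strand in 19% of early windows and 6.72% of late ones, against 6.26% of the windows of all genes tested. The letters GAAANNGAA of an interferon-stimulated response element, which Irf and Stat complexes bind, were found in 9% of early and 23.9% of late windows, against 7.66%. Over all 32851 windows of the table the shares were 5.82% and 8.56%. These letters were shortened by 1 base after forms of 10 letters had been searched and their shares seen. With 1 more G at the front, the kB letters were in 9.5% of early, 0.746% of late and 1.71% of all tested windows, and with 1 more A at the end the interferon element was in 4.5%, 16.4% and 3.47%. In 18 of the 142 windows with both shorter motifs the matches shared bases. Other letters were searched as well. An AP-1 site (TGANTCA) was in 10% of early, 10.4% of late and 5.54% of all tested windows. A TATA box (TATAAA) was in 14%, 13.4% and 7.47%, and a cyclic AMP response element (TGACGTCA) in 5.5%, 2.24% and 3.1%. A match is a description of the letters, and no binding was measured. Windows of one gene can overlap, and the classes were set by the array calls.

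Cxcl1, Cxcl2, Nfkbia and Il6 from the early class and Ifit3, Rsad2 and Gbp2 from the late class are shown. They were picked by hand from named genes that held a match. They are not typical, as most windows of each class held neither motif. Each line gives the 250 bases before the start site from RefSeq (GRCm38.p6), 5′ to 3′ in the direction of the gene. Every match to the shorter kB or interferon element letters on either strand is in capitals.
Cxcl1, chr5:90890995-90891244, + strand: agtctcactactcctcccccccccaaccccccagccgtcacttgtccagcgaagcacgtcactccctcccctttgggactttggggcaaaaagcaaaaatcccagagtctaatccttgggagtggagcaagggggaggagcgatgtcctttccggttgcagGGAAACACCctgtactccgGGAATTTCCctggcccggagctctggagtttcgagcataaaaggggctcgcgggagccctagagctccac
Cxcl2, chr5:90903649-90903898, + strand: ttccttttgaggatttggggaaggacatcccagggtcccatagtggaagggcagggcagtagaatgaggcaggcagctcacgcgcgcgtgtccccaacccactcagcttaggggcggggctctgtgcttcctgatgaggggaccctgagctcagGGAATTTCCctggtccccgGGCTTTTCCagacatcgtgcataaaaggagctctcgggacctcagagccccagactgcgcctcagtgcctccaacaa
Nfkbia, chr12:55492648-55492897, - strand: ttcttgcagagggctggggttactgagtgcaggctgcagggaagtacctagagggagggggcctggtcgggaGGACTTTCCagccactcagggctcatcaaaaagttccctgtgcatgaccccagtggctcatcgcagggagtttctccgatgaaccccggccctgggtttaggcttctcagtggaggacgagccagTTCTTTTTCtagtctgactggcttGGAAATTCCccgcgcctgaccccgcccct
Il6, chr5:30012864-30013113, + strand: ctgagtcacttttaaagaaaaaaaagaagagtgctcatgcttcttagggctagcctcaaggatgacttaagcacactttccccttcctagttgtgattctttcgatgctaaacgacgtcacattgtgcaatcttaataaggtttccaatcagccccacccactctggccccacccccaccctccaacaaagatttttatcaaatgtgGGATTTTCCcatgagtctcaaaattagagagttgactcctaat
Ifit3, chr19:34583279-34583528, + strand: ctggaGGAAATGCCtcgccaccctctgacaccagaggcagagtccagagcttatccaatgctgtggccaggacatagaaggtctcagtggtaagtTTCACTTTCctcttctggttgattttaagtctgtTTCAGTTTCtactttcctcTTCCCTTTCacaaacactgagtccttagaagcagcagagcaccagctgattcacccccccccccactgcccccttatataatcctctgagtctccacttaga
Rsad2, chr12:26456453-26456702, - strand: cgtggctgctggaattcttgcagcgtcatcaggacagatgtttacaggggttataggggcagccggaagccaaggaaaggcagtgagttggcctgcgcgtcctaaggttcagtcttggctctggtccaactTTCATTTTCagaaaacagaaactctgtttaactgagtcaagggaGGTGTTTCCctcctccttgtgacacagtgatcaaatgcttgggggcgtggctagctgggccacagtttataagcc
Gbp2, chr3:142620413-142620662, + strand: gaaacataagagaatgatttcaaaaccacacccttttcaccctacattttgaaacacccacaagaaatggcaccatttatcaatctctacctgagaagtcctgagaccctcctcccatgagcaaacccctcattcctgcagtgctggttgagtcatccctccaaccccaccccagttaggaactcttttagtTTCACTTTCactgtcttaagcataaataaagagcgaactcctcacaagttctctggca

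Cxcl1 and Cxcl2 held a pair of kB matches each, which began 89 and 70 bases before the start in Cxcl1 and 96 and 77 in Cxcl2. Nfkbia held kB matches that began 178 and 29 bases before the start and 1 match to the interferon element at 53, and Il6 held 1 kB match at 43. These genes were called higher at 1 h, by log2 changes of Cxcl1 7.82, Cxcl2 6.21, Nfkbia 4.65 and Il6 3.79. Ifit3 held matches to the interferon element that began 155, 121 and 102 bases before the start and 1 kB match at 245. Rsad2 held 1 interferon element match at 119 and 1 kB match at 75, and Gbp2 held 1 interferon element match at 58. Their changes at 1 h were not called, at Ifit3 0.45, Rsad2 1.56 and Gbp2 0.39.

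The 2 h arrays were also compared with those at 1 h. Against 1 h, 835 genes were higher at 2 h (10.2%) and 1064 lower (13%). Centring on housekeeping genes turned this balance, to 1806 higher and 375 lower. Without control replicate 1 at 2 h, 607 were lower, and without the replicate block 506 were higher and 575 lower. Of the 335 genes raised at least 2-fold, 266 were higher at 2 h than at 1 h, 7 were lower and 62 were not called. From 2 h to 4 h, 135 of them rose further, 81 came back towards the 0 h level and 119 were not called, against 18.5% of all genes higher and 24.3% lower at 4 h. The comparisons at 1, 2 and 4 h with 0 h share the 0 h arrays, so the contrasts between the later times are given here. The 335 were chosen by their 2 h arrays, which also enter these contrasts, so the choice favours higher levels at 2 h. Phlda1 was lower at 2 h than at 1 h while still raised over 0 h, with a log2 change from 1 h to 2 h of -2.34. Cxcl2 was lower than at 1 h by 0.94, a call lost without control replicate 1 at 2 h (log2 change -0.50, adjusted p = 0.31). The call was lost as well with no replicate block (adjusted p = 0.1635), with centring on housekeeping genes (0.0868) and with cyclic loess (0.0589). Background subtraction (0.107) and no filter on dim probes (0.06075) also ended it. Tnf and Cxcl1 were not called between 1 h and 2 h (Tnf -0.32 and Cxcl1 -0.33). Ccl5, Cd40 and Cav1 continued upward from 1 h, by Ccl5 3.32, Cd40 2.96 and Cav1 3.02.

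Among genes not called at 1 h, the largest rises from 1 h to 2 h were mostly those of interferon-stimulated genes. Cmpk2 was at 7.52 ± 0.28 at 0 h, 7.78 ± 0.72 at 1 h, 12.19 ± 0.92 at 2 h and 14.16 ± 0.14 at 4 h. It was not called at 1 h and then rose by 4.42 ± 0.42, adjusted p = 2.75e-07. Mx2, Ifit2 and Ifit3 were likewise not called at 1 h, with rises over 1 h of Mx2 4.06, Ifit2 3.98 and Ifit3 3.06. The interferon-inducible Ifi205 and Il4i1, an amino acid oxidase, had rises over 1 h of Ifi205 2.71 and Il4i1 2.45. Fnbp1l, a membrane-curving protein outside the interferon programme, was among the 10 largest of these rises (2.89). Of the antiviral group, 24 of 29 tested genes were higher at 2 h than at 1 h, and the median change against 0 h went from 0.03 at 1 h to 0.97 at 2 h and 2.85 at 4 h.

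A smaller set was highest at 2 h. There were 110 genes called higher at 2 h than at both 1 h and 4 h, of which 106 were also above 0 h. Noct, a clock-linked enzyme also called nocturnin, was at 7.98 ± 0.21 at 0 h, 9.91 ± 0.45 at 1 h, 11.40 ± 0.45 at 2 h and 9.32 ± 0.34 at 4 h, a rise of 1.49 (adjusted p = 0.000161) and then a change of -2.08 (adjusted p = 1.3e-06). Frmd6, a cytoskeletal regulator of Hippo signalling, had the same shape (Frmd6 1.79 and then Frmd6 -2.71). Tfec, a macrophage factor of the Mitf family, Sgms2, a sphingomyelin synthase, Klhl25 and Atp10d also peaked at 2 h, with changes over 1 h of Tfec 1.09, Sgms2 1.49, Klhl25 0.94 and Atp10d 0.84. The mirror image held for 159 genes called lower at 2 h than at both 1 h and 4 h, 142 of them also below 0 h. Hhex was at 9.34 ± 0.13, 8.61 ± 0.39, 7.44 ± 0.31 and 9.84 ± 0.23 at 0, 1, 2 and 4 h. Zfp710, Apobec1, an RNA-editing enzyme, and Itpk1, an inositol phosphate kinase, dipped likewise, with changes from 2 h to 4 h of Zfp710 2.13, Apobec1 0.74 and Itpk1 0.70. Lpar6, the largest fall of all, also recovered in part (Lpar6 0.95). Of the 120 genes lowered at least 2-fold, 109 were lower at 2 h than at 1 h, and 47 were already called lower at 1 h, where 2.96% of all genes were. At 4 h, 44 had fallen further and 29 had come back. The 120 were chosen by the same 2 h arrays, so the choice favours lower levels at 2 h. The shared 0 h arrays likewise favour calls at 1 h.

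**Figure D4:**
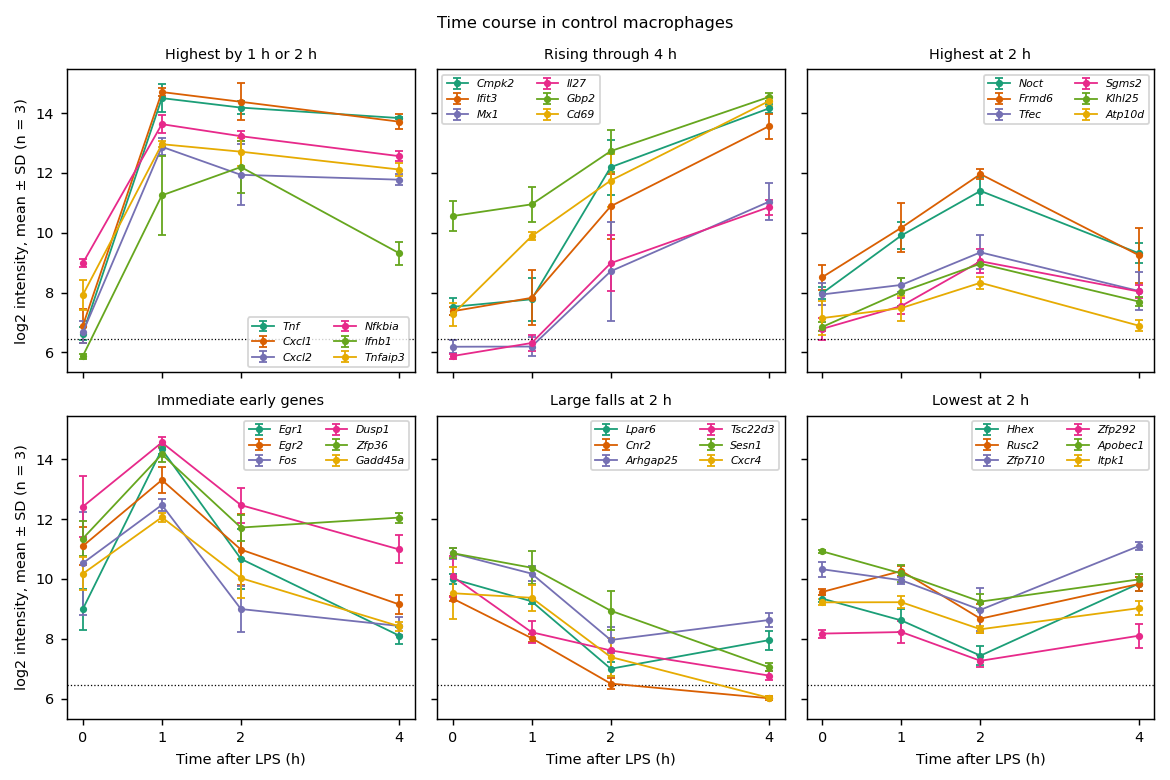
Mean level ± SD (log2 intensity, n = 3) at 0, 1, 2 and 4 h of LPS in control macrophages, with the floor dotted. The panels hold genes at or near their highest by 1 h or 2 h, genes that keep rising, genes highest at 2 h, immediate early genes, large falls and genes lowest at 2 h. Cmpk2 and Ifit3 start to rise after 1 h, Egr1 peaks at 1 h, and Noct and Hhex turn at 2 h.

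The same comparison was made in the cells given the bromodomain inhibitor, a class of compound that blocks the reading of acetylated histones. In those cells 972 genes were higher at 2 h than at 0 h (11.9%) and 1470 lower (17.9%). Of the 335 genes raised at least 2-fold in control cells, 275 were called higher with the inhibitor too, and 192 (57.3%) rose at least 2-fold in both arms. The difference between the responses was tested directly and was called for 246 genes (3%), with a higher log2 change under the inhibitor for 84 (1.02%) and a lower one for 162 (1.98%). That count was 163 without control replicate 2 at 0 h, 162 without control replicate 1 at 2 h and 72 without the replicate block. The difference was a smaller response for 87 of the 335 and a larger one for 1. Of the 228 genes raised at least 2-fold with the inhibitor, 192 (84.2%) were raised at least 2-fold in control cells too. Of the 120 genes lowered at least 2-fold, 111 were called lower with the inhibitor too, 83 fell at least 2-fold in both arms, and the response was smaller for 7. The 335 and the 120 were chosen by the control change at 2 h, which also enters the difference. The choice thus favours smaller responses in both sets. For Tnf and Cxcl1 no difference was called, with values (inhibitor response minus control response) of -0.17 ± 0.28, adjusted p = 0.86 and 0.20 ± 0.33, adjusted p = 0.857. Cxcl10 rose by 7.74 in control cells and by 6.09 with the inhibitor (difference -1.65 ± 0.31, adjusted p = 0.00471, and 0.0884 without the replicate block). Edn1, which encodes the vasoconstrictor endothelin 1, lay at 6.13, 6.22 and 6.20 at 0 h and at 10.64, 10.91 and 11.05 at 2 h in control cells. It rose at least 21.3-fold there and had a log2 change of 0.55 with the inhibitor (difference -4.14 ± 0.26, adjusted p = 7.84e-09). The response was smaller for 6 of 10 interferon-induced GTPases, 6 of 21 surface genes, 5 of 24 cytokine ligands and 2 of 20 NF-kB genes. It was smaller for 3 of 29 antiviral genes and 0 of 24 interferon regulatory, Jak, Stat and Socs genes. Members without a called difference included Mx2 (-2.51 ± 0.715, adjusted p = 0.0643), Irf7 (-0.84 ± 0.29, 0.143), Trim25 (0.18 ± 0.20, 0.778) and Socs3 (0.25 ± 0.52, 0.901). A difference that was not called is thus not shown to be absent. In these group counts smaller means a called difference against the sign of the control change, whether or not that change was called. Over all 8201 genes this held for 216, and 5002 of the 8201 were not called at 2 h in control cells. Among the 335 the response was smaller for 87. Fpr2, H2-M2 and Tnfsf4 were among the genes with smaller responses, with differences of Fpr2 -3.32, H2-M2 -3.05 and Tnfsf4 -1.52. The call for Tnfsf4 was lost with background subtracted (adjusted p = 0.0757).

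**Figure D5:**
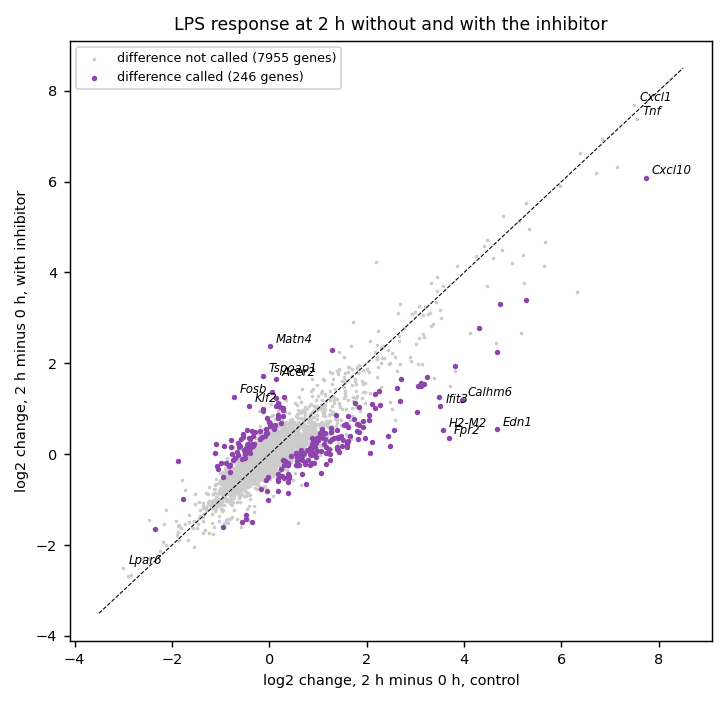
Log2 change at 2 h of LPS in control cells (x axis) and in cells given the bromodomain inhibitor (y axis) for 8201 genes, with the line of equal response dashed. Purple points are the 246 genes whose responses differed by the limma test. Tnf and Cxcl1 lie near the line, and Edn1, Fpr2 and H2-M2 lie far below it.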

How the data were processed

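RNA was isolated on Qiagen RNeasy columns, checked on a Bioanalyser and labelled as biotin cRNA with the Ambion MessageAmp kit, per the labels' protocols. The values analysed are the authors' deposited log2 intensities, 1 for each of 25697 probes on each of 24 Illumina bead arrays of 1 colour. No label or header states their scale, which was read from their range. Ranked values differed between arrays by at most 0.004 at 99% of ranks, so they were read as quantile normalised. The submitters' processing notes name limma, with no version given. The sources used here do not say whether background was subtracted. A non-normalised table with 72 value columns was not used, because no label pairs its columns with samples.

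Probes were named from the platform annotation (23978 with 1 symbol, 1719 with none, 0 with several). Probes that cleared the floor throughout 1 group or more were kept (10887), and each gene was represented by its brightest kept probe, giving 8201 genes, 7583 with a symbol. Probes of 9 genes, none of them named in the results, were called in opposite directions. Where a whole group lay under the floor, the fold is given as "at least", against the floor. No fold is given where both groups did. Among the named genes, Tnf, Il1a, Il1b, Cxcl1, Ccl4, Ccl5, Rsad2, Cd14, Tlr2 and Cebpb had a control mean above 14 at 0 h or 2 h.

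The fit used lmFit and eBayes of limma 3.58.1 (R 4.3.3) on all 24 arrays, with 8 group means, the replicate number as a block and 14 residual degrees of freedom. Tests were two-sided, adjusted by Benjamini-Hochberg over all genes within each contrast. Samples were grouped by their labels. The comparison is defined as paired by replicate number, and same-numbered samples did deviate together: correlations of their deviations from the group means were 0.47, 0.36 and 0.31 between 0 h and 2 h, and at least 0.11 for every pair of the 8 groups. The fit was tested on simulated data. Array data give no counts, so the number of arrays limits the precision.

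Named genes were the 15 largest called rises and falls without overlap between arrays, up to 5 largest rises, 5 largest falls and 3 brightest uncalled members of each gene group, a fixed panel, the 10 genes furthest above and below both 1 h and 4 h, the 10 largest rises from 1 h to 2 h among genes not called at 1 h, and the 5 largest differences with the inhibitor in each direction. Selections from these are described. The panel genes Il12b, Acod1 and Csf1r were not analysed here, as no named probe was found for them. The comparison, gene groups and panel were chosen with earlier results of these data known, so counts over a group are descriptions without a test. The motif letters were likewise chosen with the calls known. Alternatives were no block, the 6 arrays alone, centring on housekeeping genes, cyclic loess, background subtraction, other filters, the mean of probes and each replicate left out.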

Additional observations from a re-analysis of the deposited data

Results flagged for a closer look

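The LPS response at 2 h differed between control and inhibitor-treated cells for 246 genes by the test of the difference itself, 84 with a higher and 162 with a lower log2 change under the inhibitor. The largest negative differences (inhibitor response minus control response, log2) were Edn1 -4.14, Fpr2 -3.32, H2-M2 -3.05, Calhm6 -2.75 and Ifit3 -2.46. The largest positive ones were Matn4 2.37, Fosb 1.98, Tspoap1 1.86, Acer2 1.51 and Klf2 1.48. Matn4, Tspoap1, Acer2, Fosb and Klf2 were not called at 2 h in control cells. Without the replicate block Ifit3 (adjusted p = 0.196), Fosb (0.0971), Tspoap1 (0.128) and Klf2 (0.0801) were no longer called. Fosb and Tspoap1 also lost the call with centring on housekeeping genes, cyclic loess, background subtraction, no filter on dim probes and the mean of probes (adjusted p from 0.0507 to 0.139), and Klf2 with background subtraction (0.0505). Leaving out single arrays ended the call of Tspoap1 for each of the 6 control arrays at 0 h and 2 h, of Fosb for 4 of them and of Klf2 for 4, among them control replicate 2 at 0 h (Fosb adjusted p = 0.145, Tspoap1 0.133 and Klf2 0.0762).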

How the results depend on the processing

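Of 192 results for single genes named in the text, 177 kept their side of the threshold under every alternative run, and 0 reversed. Without the replicate block the counts were 2070 called, 1249 lowered, 506 higher and 575 lower than at 1 h, 1221 lower at 4 h than at 2 h, and 72 that differed with the inhibitor. With the 6 arrays alone, 1311 were lowered. Centring on housekeeping genes gave 2838 raised, 584 lowered, 54 lowered at least 2-fold, 1806 higher and 375 lower than at 1 h, and 2507 higher and 782 lower at 4 h than at 2 h. Cyclic loess gave 1309 lowered. Background subtraction gave 522 raised and 402 lowered at least 2-fold. Leaving out 1 array gave 607 to 1069 genes lower than at 1 h, the lowest without control replicate 1 at 2 h, and 162 to 248 that differed with the inhibitor. The direction of small changes thus rests on the scaling, and no alternative tests the scaling against an outside standard. The 3 arrays a group limit the precision, and levels near the floor or the top of the scale are the least certain.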
